A study of Mus musculus with 12 samples.

Results

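The genes described here are 10 neuropeptide precursors of sensory neurons, chosen by name: Calca, Calcb, Tac1, Adcyap1, Gal, Npy, Vip, Nts, Sst and Nppb. They were looked up by symbol in a pair of count tables from cultured mouse dorsal root ganglion (DRG) neurons, which list 9112 genes for the cultures labelled Cre+ and 14177 for those labelled Cre-. Calca, Calcb, Tac1, Adcyap1 and Nts had a row in both tables, and Gal, Npy and Sst had a row in the Cre- table, so that 5 members could be measured in the Cre+ libraries and 8 in the Cre- libraries. The levels of Vip and Nppb were not analysed here. The lowest count of any library in the Cre+ table was 5, so a member that is lower than this in any Cre+ library could not be among the 5, and the members with values do not stand for all 10.

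Neuropeptides are made as precursors, cut and modified in dense-core vesicles, and released by activity to act on G protein-coupled or guanylyl cyclase receptors of neighbouring cells. In the DRG, Calca and Calcb (the precursors of α- and β-CGRP), Tac1 (substance P) and part of Adcyap1 (PACAP) belong to peptidergic nociceptors. Sst, Nts and Nppb mark itch neurons, and Gal, Npy, Vip and, with them, Adcyap1 are known to rise in DRG neurons after nerve injury, a state that dissociation and culture resemble.

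The mice were RiboTag animals, in which Cre recombinase switches the ribosomal protein Rpl22 to a form with an HA tag, so that an HA antibody pulls down ribosomes and the RNA on them from the Cre-expressing cells. All were Rpl22HA/HA males, 3 to 6 months old by the labels, and carried the driver (Runx3-Cre+) or lacked it (Runx3-Cre-). The Runx3 driver marks proprioceptive neurons, and by the design of the allele no tagged ribosomes are made without Cre. For each of 3 samples per genotype, Percoll-purified neurons from all ganglia of 5 mice were pooled and grown for 24 h, and RNA was sequenced from the HA pull-down and, as input, from 10% of the lysate. This gave 12 libraries in 4 groups of 3, with 8886308 to 18633365 counts on the listed genes in each, and the p-values below measure the spread between such pooled samples.

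Proprioceptor genes, which test the labels, were compared between pull-down and input with each label. Of 8 markers of proprioceptors and large-diameter neurons, 7 were called higher in pull-down than in input with the label Cre-, among them Runx3 (log2 fold change 3.52 ± 0.43, SE) and Pvalb (2.98 ± 0.22). The label Cre+ gave 1 of 7 tested (Ntrk3, 2.19 ± 0.30), with 6 of 7 values above 0 (median 1.30 against 0.08 for all genes, and 2.68 with the label Cre-), and Runx3 gave 1.55 ± 0.86 (FDR = 0.302). The difference of Runx3 between the genotypes did not pass (-1.92 ± 0.99, FDR = 0.300). Of the 7 genes tested for that difference, 2 were called (Spp1 and Etv1, both lower with the label Cre+), and 2 of 7 values were above 0. The list as a whole was not tested. Groups are therefore named by their labels throughout, and no direction below is tied to the presence of Cre. The pull-downs labelled Cre+ were also the least alike, with correlations across genes of 0.685 to 0.831 between replicates, against 0.913 to 0.975 within the other groups. Replicate 1 of them held more endothelial RNA (a summed level of 3 listed markers of 4, of 381 TMM-scaled counts per 1000000, CPM, against 96.5 and 101) and more macrophage RNA (112 against 16.8 and 4.85, 2 of 5 markers listed). Neither marker set was at 0 in any of these libraries. Among the pull-downs labelled Cre-, replicate 1 also held more endothelial (112 against 15.2 and 15.4) and fibroblast RNA (86.1 against 28.2 and 25.0), and more Th (35.5 against 6.48 and 3.04).

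Calca and Calcb are neighbours on chromosome 7 of GRCm38 (GENCODE M21), at chr7:114625981-114636910 on the minus strand and chr7:114716555-114723368 on the plus strand. Since they arose by duplication, reads could be shared between them. Their most alike coding exon is the one that encodes CGRP, exon 4 of each gene (chr7:114632443-114632599 and chr7:114721975-114722134). It is shown because it bears on whether both counts can be read apart, with the bases that differ in an alignment of the coding parts in capitals.
Calca: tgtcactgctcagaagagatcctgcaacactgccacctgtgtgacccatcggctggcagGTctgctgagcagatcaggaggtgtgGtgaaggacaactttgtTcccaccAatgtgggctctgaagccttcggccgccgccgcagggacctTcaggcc
Calcb: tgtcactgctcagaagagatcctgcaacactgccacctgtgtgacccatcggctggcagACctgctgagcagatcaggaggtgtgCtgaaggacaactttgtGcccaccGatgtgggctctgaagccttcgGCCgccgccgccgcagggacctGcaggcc
The exons agreed in 151 of 160 aligned columns (94.4%), with 6 mismatches and 3 gap columns, and the longest identical run was 59 bases, longer than a read of 50. Over all exons, 12 of the 1678 stretches of 50 bases in Calca (0.72%) also occurred in Calcb, where they were 0.95% of the total. The other members with values shared no such stretch with another gene, and no member's exons overlapped those of another gene. The Calca count further merges the CGRP transcript with the calcitonin transcript spliced from the same gene.

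Upstream sequence was available from RefSeq (GRCm38.p6) for 9 of the 10 members, all but Calcb. The 250 bases before each start were searched on both strands for the cAMP response element TGACGTCA, for its shorter core TGACG, which the longer motif contains, and for the AP-1 motif TGANTCA, bound by factors of the Jun family. These are the elements best known from peptide promoters and from injured neurons. Stretches of 60 bases around a match are given for members with values, on the strand of the gene, with the motif in capitals.
Sst, chr16:23890859-23890918, minus strand: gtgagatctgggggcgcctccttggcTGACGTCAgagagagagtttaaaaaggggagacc
Nts, chr10:102490593-102490652, minus strand: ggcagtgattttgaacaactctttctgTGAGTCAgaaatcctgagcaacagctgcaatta
Calca, chr7:114636391-114636450, minus strand: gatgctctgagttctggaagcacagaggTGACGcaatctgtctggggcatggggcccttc
Tac1, chr6:7554990-7555049, plus strand: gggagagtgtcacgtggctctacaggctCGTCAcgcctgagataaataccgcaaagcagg
Adcyap1, chr17:93198898-93198957, plus strand: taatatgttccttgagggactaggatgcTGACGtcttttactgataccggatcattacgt
Sst held the full element 48 bases before its start, as did 1.55% of 32851 mouse promoters of this length. The core stood in Calca (65 bases before the start), Tac1 (43 and 197), Adcyap1 (91 from the first of its 2 starts), Vip (79) and Nts (166), and in 17.8% of all promoters. The AP-1 letters were found in Nts, 207 bases before the start, and in 6.75% of all promoters, and none of the 3 motifs was found in these windows of Gal, Npy and Nppb.

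In the inputs, which reflect total RNA of the cultures, Calca was the most abundant member. Per kilobase of exon, its level in the inputs labelled Cre- was 467 ± 5.88 CPM (SD, n = 3), with no overlap with the next member. Adcyap1 (92.5 ± 35.1), Calcb (82.0 ± 18.4) and Nts (65.6 ± 27.6) followed, each overlapping its neighbour in the order. Gal (28.7 ± 10.7) and Tac1 (25.8 ± 1.45) overlapped each other, Sst lay lower at 15.8 ± 3.38, and Npy stood last at 1.42 ± 1.90. The inputs labelled Cre+ gave the order Calca (600 ± 253), Calcb (95.7 ± 23.7), Adcyap1 (87.4 ± 26.9), Nts (84.1 ± 22.2) and Tac1 (27.9 ± 7.91), where Calcb, Adcyap1 and Nts again overlapped. In the pull-downs labelled Cre- the order began with Adcyap1 (200 ± 68.5) and Calca came next (82.3 ± 38.8), the only group in which Calca was not first.

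**Figure D1:**
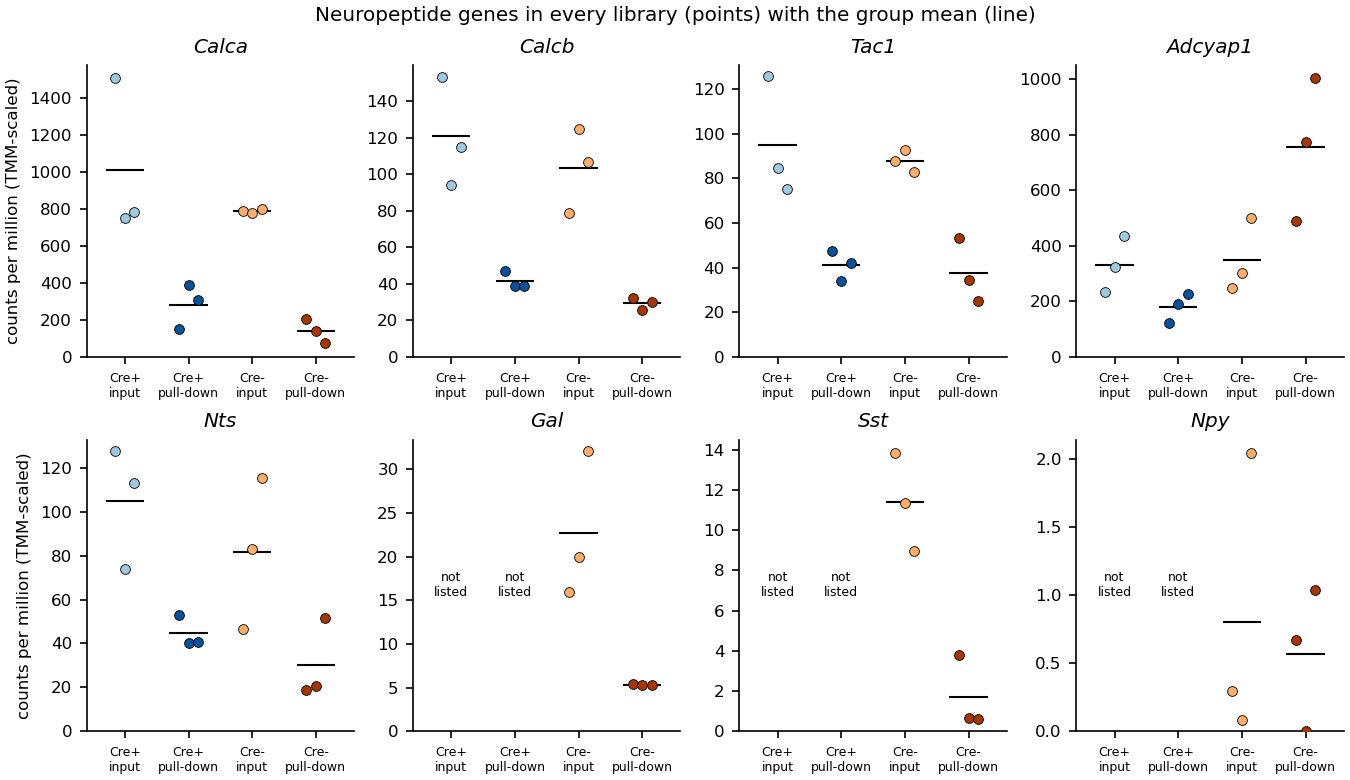
TMM-scaled counts per 1000000 (CPM) of the 8 neuropeptide genes with values, in each library (points, spread sideways for sight) and as group means (lines), for inputs and pull-downs labelled Cre+ and Cre-. Each vertical axis is linear, starts at 0 and has its own range, and Adcyap1 is the gene whose pull-downs labelled Cre- (489 to 1005) lie above those labelled Cre+ (124 to 225).

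The first question was which peptide transcripts were higher or lower on the pulled-down ribosomes than in the total RNA of the same cultures. With the label Cre+, the 5 measured members all had lower levels in each pull-down than in any input, and 2 of them, Calca and Calcb, passed the call (FDR below 0.1 and a 2-fold change). Over all 8947 genes tested, 7.67% were called, 2.49% lower and 5.17% higher, and 17.9% had all pull-downs below all inputs. The share called lower varied with exonic length. It was 14.3% at 1000 to 1499 bases (the bin of Calcb and Nts), 7.39% at 1500 to 2499 (Calca) and 2.85% at 2500 to 3999 (Tac1 and Adcyap1). In such bulk samples, fewer ribosomes pulled down from a cell type and less of the transcript on its ribosomes cannot be told apart.

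Calca measured 1503, 749 and 781 CPM in the inputs labelled Cre+ and 151, 389 and 306 in the pull-downs. Input replicate 1 was the highest and pull-down replicate 1 the lowest library, and the groups did not overlap. The fold change was 3.58-fold lower (log2 fold change -1.84 ± 0.41, SE, FDR = 0.0593). Calcb measured 153, 94.4 and 115 in the inputs and 46.9, 38.7 and 38.8 in the pull-downs, 2.92-fold lower (-1.54 ± 0.36, FDR = 0.0636). For both CGRP genes, 3 against 3 libraries gave separated groups, with the tighter spread in the pull-downs of Calcb (SD of 4.72).

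Tac1, the substance P precursor, measured 126, 84.4 and 75.0 in the inputs and 47.3, 33.9 and 42.2 in the pull-downs labelled Cre+. These groups did not overlap either, and its log2 fold change of -1.21 ± 0.39 had an FDR of 0.114 and was not called. Nts, the neurotensin precursor, gave 128, 74.1 and 113 against 52.8, 40.2 and 40.8 (-1.23 ± 0.38, FDR = 0.103). Adcyap1 gave 232, 324 and 435 against 124, 192 and 225 (-0.87 ± 0.34, FDR = 0.162), and the highest pull-down lay just under the lowest input. None of these 3 passed the call, though every pull-down was below every input.

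The calls in these libraries were sensitive to which samples entered. Calca and Calcb both lost the call without any 1 of the 3 inputs (FDR of 0.126 to 0.260 for Calca and 0.173 to 0.295 for Calcb), and Calca also without pull-down replicate 3 (FDR = 0.103). Without any such input, edgeR's quasi-likelihood test called 0 genes of the whole table. Without pull-down replicate 1, which stood apart, 4 members were called lower (Calca, Calcb, Tac1 and Nts), and Tac1 and Nts then reached FDRs of 0.0593 and 0.0482. The scaling also moved the split of all calls: 67.5% of called genes were higher with TMM, 47.7% with upper-quartile scaling and 21.4% with library size alone, as the median of all genes went from 0.08 to -0.12 and -0.36. Relative to that median, the log2 fold change of Calca was -1.92, -1.87 and -1.88 and that of Adcyap1 -0.95, -0.94 and -0.94 under the 3 scalings.

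Members moved in both directions with the label Cre-. Of the 8 tested, 6 were called lower in the pull-down than in the input (Calca, Calcb, Tac1, Nts, Gal and Sst), 1 was called higher (Adcyap1) and Npy was not called. Each of these calls was also made without pull-down replicate 1, which held more RNA of other cells, with log2 fold changes of -2.87 for Calca, -1.55 for Tac1 and 1.36 for Adcyap1. Of all 11526 genes tested, 12% were called, 5.93% lower and 6.06% higher (50.5% of called genes were higher, but 47.2% with upper-quartile and 25.7% with library size scaling). Calca, Calcb, Tac1, Gal and Sst had every pull-down below every input, as had 18.6% of all genes, whereas the groups of Nts, Adcyap1 and Npy overlapped.

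Calca was again the clearest of the CGRP genes. It measured 789, 777 and 796 in the inputs and 204, 139 and 73.2 in the pull-downs. Relative to the mean, its inputs were the tightest group of any member in the inputs (SD of 1.26% of the mean). Calca was 5.67-fold lower (log2 fold change -2.50 ± 0.30, FDR = 0.000383), at rank 55 from the bottom of 11526 genes. Calcb measured 78.8, 125 and 107 in the inputs and 32.4, 25.6 and 30.2 in the pull-downs, 3.53-fold lower (-1.82 ± 0.22, FDR = 0.000409). Tac1 gave 87.8, 92.8 and 82.9 in the inputs and 53.1, 34.3 and 24.8 in the pull-downs, 2.35-fold lower (-1.23 ± 0.26, FDR = 0.00888). For Calca and Tac1 the pull-down libraries spread more than the inputs, with replicate 1 highest and replicate 3 lowest in both, and without pull-down replicate 3 the change of Tac1 was -0.997 and missed the 2-fold limit (FDR = 0.0227).

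Gal, the galanin precursor at chr19:3409915-3414544, was low and very even in the pull-downs. Its inputs measured 15.9, 20.0 and 32.1 and its pull-downs 5.39, 5.33 and 5.26, from 71 to 97 counts each. The pull-downs were 4.25-fold lower (-2.09 ± 0.34, FDR = 0.00214) and did not overlap the inputs. Sst, the somatostatin precursor at chr16:23889573-23891342, measured 13.9, 11.3 and 8.98 in the inputs. Its pull-downs gave 3.78, 0.674 and 0.593, from 68, 10 and 8 counts, so replicate 1 held most of what was seen. Sst was 6.62-fold lower (-2.73 ± 0.67, FDR = 0.0178), and without pull-down replicate 1 the log2 fold change was -4.13 (FDR = 0.000118).

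Nts was the member called lower whose groups overlapped. The inputs measured 46.7, 83.2 and 116 and the pull-downs 18.9, 20.5 and 51.8, so pull-down replicate 3 lay above input replicate 1. Each pull-down lay below the input of the same number. The change was 2.70-fold lower (-1.43 ± 0.41, FDR = 0.0362). It lost the call without input replicate 3 (FDR = 0.145) or pull-down replicate 2 (FDR = 0.137), and without pull-down replicate 3 it was -2.04. Npy, the neuropeptide Y precursor, had 3, 1 and 27 counts in the inputs and 12, 0 and 14 in the pull-downs. At that depth no difference was detectable (-0.53 ± 1.25, FDR = 0.814), and the library with 0 counts allows a level of up to 0.202 CPM (3 counts, counting error only).

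Adcyap1, at chr17:93198245-93206541, was the exception in direction. It encodes PACAP, a peptide of nociceptors that also rises in large-diameter DRG neurons after nerve injury. The inputs labelled Cre- measured 247, 302 and 499 and the pull-downs 489, 772 and 1005, so that pull-down replicate 1 lay just under input replicate 3. Each pull-down lay above the input of the same number. Adcyap1 was 2.16-fold higher (1.11 ± 0.29, FDR = 0.0238), above 93.9% of all genes tested. The call was lost with library size scaling (0.87), in a fit of all 12 libraries (FDR = 0.103), without input replicate 1 (0.91) and without pull-down replicate 3 (0.87). In each of these the level remained higher in the pull-down.

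**Figure D2:**
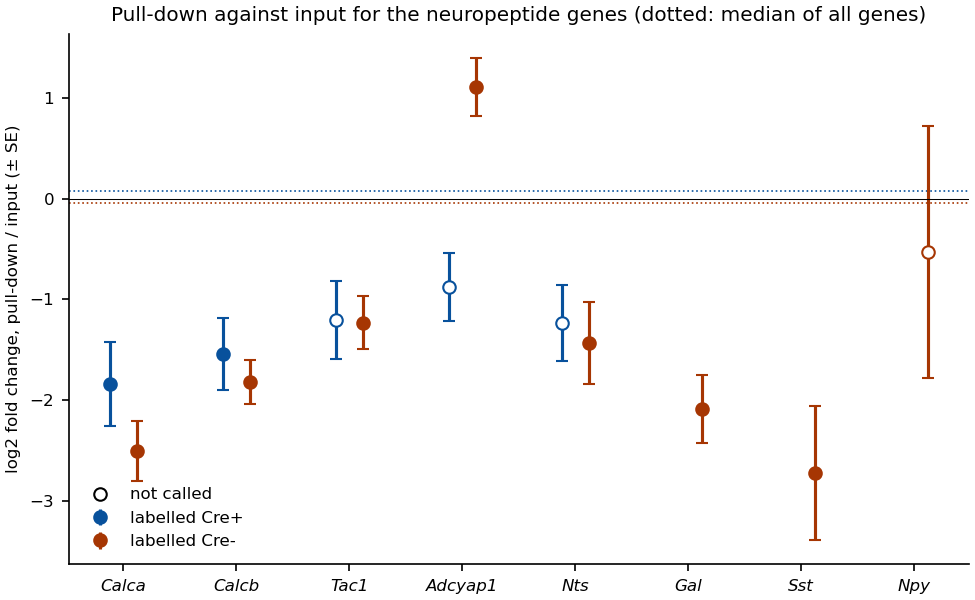
Log2 fold change of pull-down against input (± SE) for each neuropeptide gene, in libraries labelled Cre+ (blue) and Cre- (brown). Filled points passed the call, open points did not, and dotted lines give the median of all genes; Adcyap1 in the libraries labelled Cre- (1.11) is the point above both lines.

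The difference between the genotypes was tested directly, as the log2 enrichment labelled Cre+ minus that labelled Cre-, on 8830 genes in both tables. Adcyap1 was the member that passed, at -1.94 ± 0.48 (FDR = 0.067), or 3.83-fold. Of all genes tested, 4.79% were called, 2.15% in this direction and 2.64% in the other, and the share of the latter among called genes went from 55.1% to 31% with upper-quartile and 21.3% with library size scaling. Of the 8 genes of all neurons, 3 were called in the same direction in this test, Snap25 (-1.75), Uchl1 (-1.95) and Stmn2 (-1.26), and Rbfox3 in the other (1.02, a call lost with library size and upper-quartile scaling). Of the 7 proprioceptor genes tested, Spp1 (-3.59) and Etv1 (-2.40) were called in the direction of Adcyap1 and none in the other. Their part in the result was not tested. Calca (0.71 ± 0.55, FDR = 0.496), Calcb (0.31, FDR = 0.686), Tac1 (0.06, FDR = 0.957) and Nts (0.24, FDR = 0.859) did not pass. Within 2 SE, the difference lay between -0.39 and 1.81 for Calca and -0.47 and 1.10 for Calcb. It lay between -0.85 and 0.97 for Tac1 and -0.96 and 1.43 for Nts. These ranges are not limits of detection, and changes beyond them could also miss the call. The call of Adcyap1 was lost without any of 6 of the 12 libraries, namely Cre+ input replicates 2 and 3, Cre- input replicates 1 and 2 and Cre- pull-down replicates 2 and 3 (FDR of 0.115 to 0.193), and its FDR ranged from 0.00872 to 0.193 over the 18 alternatives, with the same sign in each.

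Set directly against each other on a joint scale, the pull-downs showed the same member apart. These comparisons share their pull-down libraries with those above, so they are not separate evidence. Adcyap1 averaged 167 ± 47.4 (SD, n = 3) in the pull-downs labelled Cre+ and 656 ± 221 in those labelled Cre-, 3.94-fold lower in the former (-1.98 ± 0.34, FDR = 0.0411), with no overlap (15.5% of all genes). Of all genes, 3.17% were called here, 1.52% lower and 1.65% higher (52.1% of calls were higher, or 30.4% and 23.9% under those scalings). The call was lost without Cre- pull-down replicate 2 (FDR = 0.203) or 3 (FDR = 0.268). Calca averaged 261 ± 113 against 121 ± 57.6 (1.11 ± 0.45, FDR = 0.224, groups overlapping), and it was called higher in the libraries labelled Cre+ without Cre+ pull-down replicate 1 (FDR = 0.0576). Calcb had all pull-downs labelled Cre+ above all labelled Cre- (38.4 ± 4.34 against 25.6 ± 3.11), as had 13% of all genes, with an FDR of 0.48. Tac1 (0.22, FDR = 0.826) and Nts (0.65, FDR = 0.524) overlapped.

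The inputs differed less. No member passed between inputs labelled Cre+ and Cre-, where the log2 differences were 0.43 for Calca, 0.29 for Calcb, 0.18 for Tac1, -0.01 for Adcyap1 and 0.43 for Nts, all with overlapping groups. Of all genes, 3.82% had every input labelled Cre+ above every one labelled Cre- and 3.92% below. The edgeR quasi-likelihood test called 0 of 8830 genes (0%), with 178 at an unadjusted p under 0.05, whereas DESeq2 and the edgeR exact test called 1 each. For Adcyap1, 2 SE on either side spanned -0.58 to 0.55.

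Ratios within a library do not depend on the scaling. They were not divided by length, so only their change between libraries is read. The ratio of Adcyap1 to Calca counts was 0.154, 0.432 and 0.556 in the inputs labelled Cre+ and 0.314, 0.389 and 0.627 in those labelled Cre-. It was 0.818, 0.493 and 0.734 in the pull-downs labelled Cre+, and 2.40, 5.56 and 13.7 in the pull-downs labelled Cre-, where all 3 libraries had more Adcyap1 than Calca counts. The ratio of Calca to Calcb ran from 6.21 to 10 in the 6 inputs. In the pull-downs labelled Cre- it was 6.30, 5.44 and 2.43, and in those labelled Cre+ it was 3.22 in replicate 1 and 10 and 7.90 in the others.

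**Figure D3:**
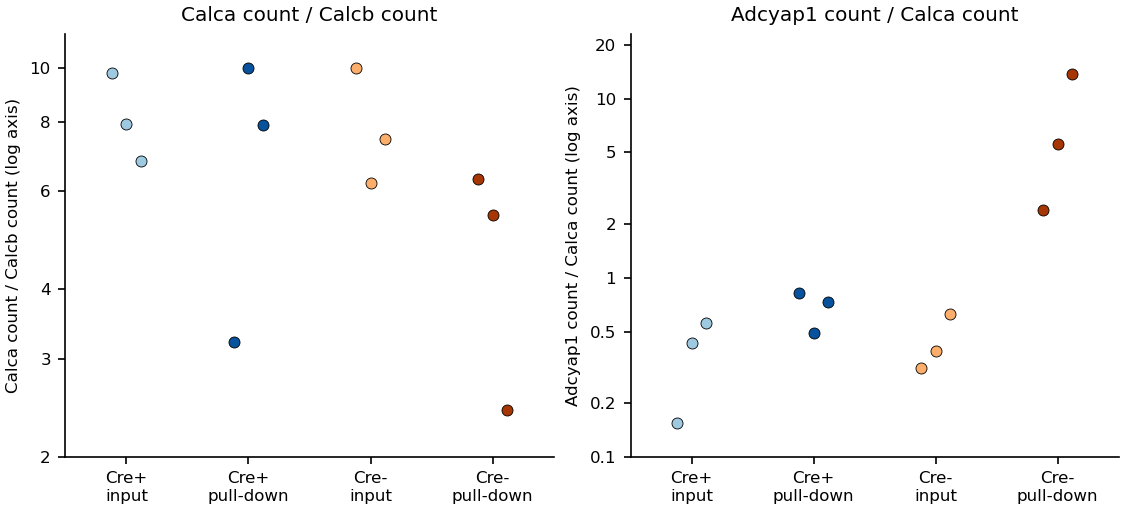
Ratio of Calca to Calcb counts (left) and of Adcyap1 to Calca counts (right) in each library, by group, on log axes. The 3 pull-downs labelled Cre- (2.40, 5.56 and 13.7) are the libraries with an Adcyap1 to Calca ratio above 1.

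Across the 12 libraries, Calca, Calcb and Tac1 varied together. On the log2 scale (prior count of 2), Pearson's r was 0.91 for Calca with Calcb, 0.915 for Calca with Tac1 and 0.924 for Calcb with Tac1. Nts followed them with 0.667 to 0.885, and the values of Adcyap1 with each were weak and below 0 (-0.382 to -0.212). The 12 points are 4 groups of 3 with shared cultures, so these values are descriptions. The genes most like each member by the same measure, among 8829 others, were Tbpl1, Vamp2 and Tmsb10 for Calca (0.953 to 0.96), Eif4e, Tmsb10 and S100a6 for Calcb (0.951 to 0.963) and Ifrd1, Serpina3n and Atp1b3 for Tac1 (0.951 to 0.974). For Adcyap1 they were Ano4, Spock1 and Wasl (0.932 to 0.959), and for Nts they were Rnf149, Slc35c2 and Cldn25 (0.893 to 0.928).

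Gene length moved with the pull-down, and the members with values ran from 566 (Npy) to 3777 (Adcyap1) exonic bases. Over genes with a length (99.5% of those tested), Spearman's rho between exonic bases and the log2 fold change of pull-down against input was 0.459 with the label Cre+ and 0.323 with the label Cre-. Among genes of 500 to 999 exonic bases, the median log2 fold change was -1.22 and -0.51. The members were therefore set beside all genes of like length. With the label Cre+, Nts (1248 bases) lay at -0.22 from the median of its bin, Calcb at -0.53, Adcyap1 at -0.49, Tac1 at -0.82 and Calca (1684 bases) at -1.12. With the label Cre-, Sst (721 bases) lay at -2.22, Calca at -2.14, Gal (788 bases) at -1.58, Calcb at -1.37, Tac1 (3399 bases) at -1.07, Nts at -0.98, Npy at -0.02 and Adcyap1 (3777 bases) at 1.27 against their bins. The part of length in the members' values was not tested.

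**Figure D4:**
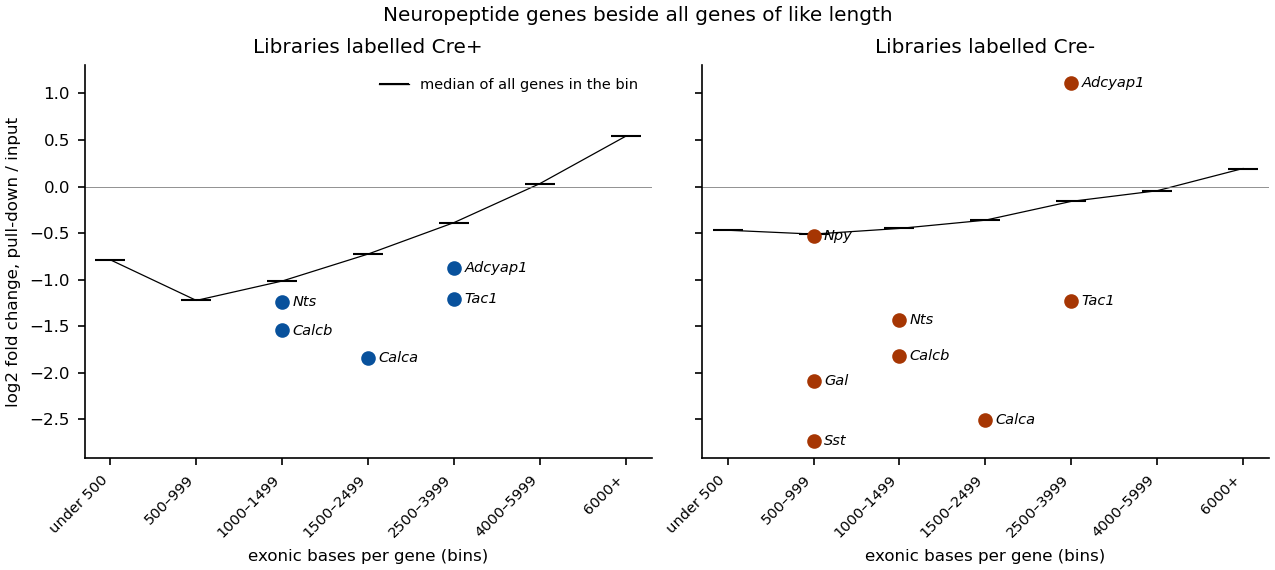
Log2 fold change of pull-down against input for the neuropeptide genes (points) beside the median of all genes in bins of exonic length in bases (bars joined by a line), for libraries labelled Cre+ (left) and Cre- (right). The medians rise with length in both from the bin that starts at 500 bases, and in the libraries labelled Cre- Calca, Sst and Gal lie below the median of their bin (differences of -2.14, -2.22 and -1.58), with Adcyap1 above it.

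The enzymes and cargo proteins of dense-core vesicles, through which these peptides are processed and released, were all tested (13 genes). With the label Cre+, 0 were called higher and 3 lower, with a median log2 fold change of -0.61 against 0.08 for all genes and 2 of 13 values above 0. Those called lower were the granins Chgb (-1.13 ± 0.31, FDR = 0.0879) and Scg2 (-1.46 ± 0.33, FDR = 0.0586) and the proconvertase chaperone Scg5 (-3.15 ± 0.64, FDR = 0.0466). The carboxypeptidase Cpe, with the most counts of the list in the inputs, gave -0.92 (FDR = 0.11). With the label Cre-, 1 was called higher and 2 lower, with a median of -0.13 against -0.04. Chgb was higher (1.32 ± 0.14, FDR = 0.000191), and Pam, the amidating enzyme that CGRP, substance P and neuropeptide Y need (-1.03 ± 0.19, FDR = 0.00446), and Cadps2, a priming factor of vesicle release (-1.01 ± 0.34, FDR = 0.0679), were lower. Cadps, the most abundant gene of the list in these pull-downs, gave 0.93 ± 0.15 (FDR = 0.00177) and missed the 2-fold limit. With the label Cre+ it gave 0.38 (FDR = 0.404).

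Chgb was called in opposite directions with the different labels. It measured 336, 304 and 293 in the inputs labelled Cre- and 791, 768 and 763 in the pull-downs, against 307, 251 and 271 in the inputs and 84.2, 159 and 134 in the pull-downs labelled Cre+. No group of pull-downs overlapped its inputs. The difference between the enrichments was -2.40 ± 0.32 (FDR = 0.00288), and Scg5 also differed (-2.88 ± 0.62, FDR = 0.0396). Between the pull-downs, Chgb, Scg5 and the proconvertase Pcsk2 (-1.39 ± 0.33, FDR = 0.0924) were called lower in the libraries labelled Cre+. Scg2, Chgb and Scg5 kept their calls in the libraries labelled Cre+ under the other scalings and DESeq2, and Cpe and Vgf joined them with library size scaling. The calls of Scg2, Chgb and Scg5 were lost when any Cre+ input was left out, as no gene was then called. Cadps2 lost its call in the libraries labelled Cre- with DESeq2.

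Of 29 receptors for these peptides, 7 were listed for Cre+ and 17 for Cre-, of which 6 and 7 passed the mean FPKM filter and were tested. With the label Cre+ none passed the call (0 higher and 0 lower, median 0.03 against 0.08, or -0.43 with library size and -0.19 with upper-quartile scaling), although Crcp, a CGRP receptor component, was called lower with DESeq2 and with library size scaling. With the label Cre-, 1 was called higher and 1 lower, with a median of -0.84 against -0.04. Sort1, sortilin, a receptor of neurotensin and of other ligands, rose from 10.0, 18.2 and 18.6 in the inputs to 71.9, 78.0 and 76.3 in the pull-downs (2.27 ± 0.26, FDR = 0.000316). Npy2r, a receptor of neuropeptide Y on sensory terminals, was lower (-1.40 ± 0.46, FDR = 0.0603). Npr2, Npy1r and Crcp gave 0.35, -0.96 and -0.98 and missed the call. Of these, Npy1r (FDR = 0.0492) and Crcp (FDR = 0.0425) had every pull-down below every input, as had 18.6% of all genes, and missed the 2-fold limit. Npr2 (FDR = 0.217) and Galr2 (0.55, FDR = 0.562) had every pull-down above every input, as had 18.2% of all genes. With library size scaling Npy1r and Crcp were called lower beside Npy2r, and with upper-quartile scaling Crcp was. Sort1 also differed between the genotypes (-2.14 ± 0.51, FDR = 0.0614), and Calcrl, the CGRP receptor proper, was not called in either (-0.03 ± 0.67 and -0.84 ± 0.87). Adcyap1r1, a PACAP receptor left out by the filter, measured 2.44, 0.329 and 0.528 in the inputs labelled Cre- and 12.8, 6.74 and 7.41 in the pull-downs. Sstr1 and Sstr3, also left out, had every such pull-down above every input, as had 18.2% of the genes that were tested. The other receptors left out with the label Cre- had overlapping groups.

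Among 25 other peptide precursors, 4 could be tested for Cre+ and 10 for Cre-. None was called with the label Cre+ (0 higher and 0 lower, median -1.003), where Nmb, neuromedin B, gave -1.57 ± 0.50 (FDR = 0.109) and was called lower with DESeq2, upper-quartile and library size scaling. With the label Cre-, Nmb (-2.71 ± 0.46, FDR = 0.00267) and Cartpt (-2.33 ± 0.49, FDR = 0.00876), the CART precursor, were called lower and Pthlh was called higher (median -0.88). Pthlh, the parathyroid hormone-like peptide, measured 1.46, 1.89 and 2.19 in the inputs and 9.72, 9.24 and 15.6 in the pull-downs (2.63 ± 0.43, FDR = 0.00239). Edn1 gave 1.22 ± 1.04 (FDR = 0.498) and -0.86 ± 0.72 (FDR = 0.451) and was not called in either.

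**Figure D5:**
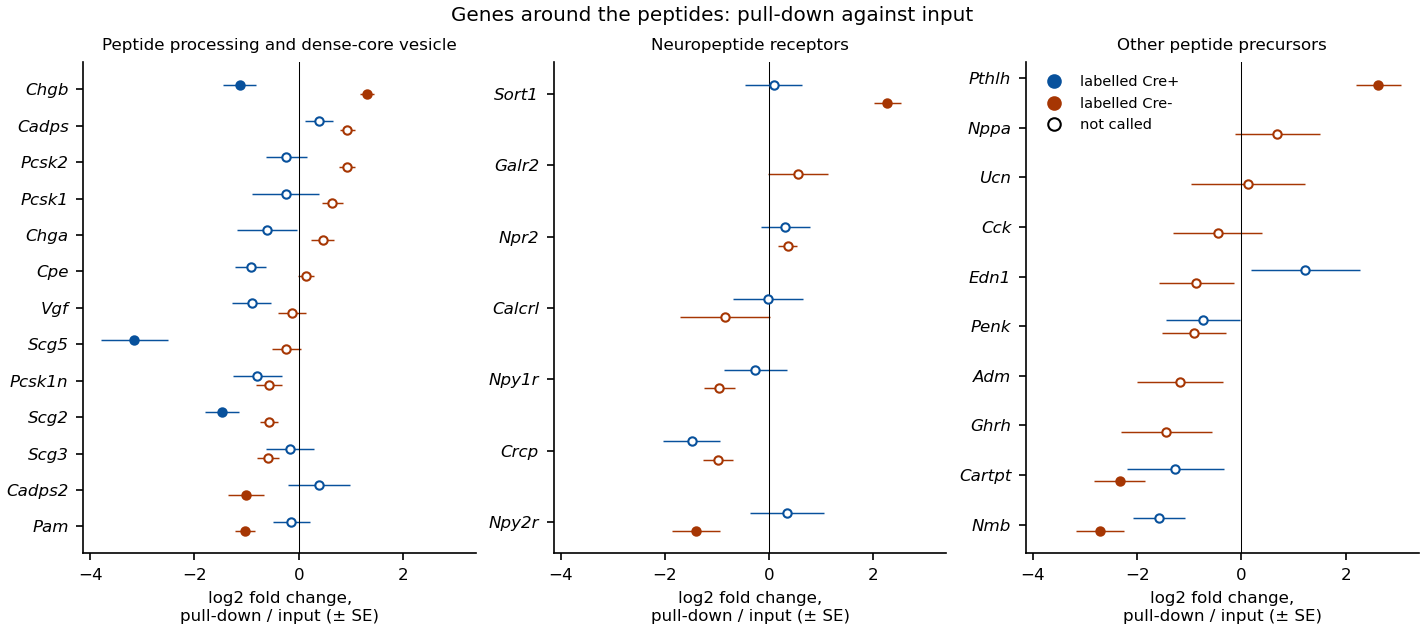
Log2 fold change of pull-down against input (± SE) for each tested gene of 3 lists around the peptides, in libraries labelled Cre+ (blue) and Cre- (brown), with filled points for called genes. Chgb, Sort1 and Pthlh are the genes of these lists called higher in the libraries labelled Cre- (1.32, 2.27 and 2.63).

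Some other genes listed for peptidergic nociceptors were lower beside the CGRP genes in the libraries labelled Cre-. Of 5 such markers, 2 were called lower there and 0 higher (median -1.20): Kit (-1.56 ± 0.45, FDR = 0.0372) and Smr2 (-2.80 ± 0.56, FDR = 0.00719). The sodium channels Scn10a (-0.88, FDR = 0.122) and Scn11a (-0.77, FDR = 0.353) and the heat-gated channel Trpv1 (-1.20, FDR = 0.273) did not pass, and of these Scn10a was called lower with library size scaling. With the label Cre+, 0 of the 3 tested were called in either direction (median 0.09, but -0.38 with library size and -0.14 with upper-quartile scaling), and Scn10a, Scn11a and Kit gave 0.78, 0.09 and -0.11. Their sum was 787 to 1335 CPM in the pull-downs and 556 to 939 in the inputs labelled Cre+. Scn10a made up most of these sums (592 to 987 in the pull-downs and 354 to 607 in the inputs). Whether the listed genes are particular to peptidergic neurons was not tested. The difference between the genotypes passed for 0 of these 3 markers with edgeR, and DESeq2 called Scn10a.

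Of 6 markers of non-peptidergic nociceptors, P2rx3, an ATP receptor (-1.39 ± 0.21, FDR = 0.00154), and Lpar3 (-1.68 ± 0.60, FDR = 0.0813) were called lower in the libraries labelled Cre-, and 0 of 4 were called in those labelled Cre+. Of 5 genes of the itch neurons that make Sst and Nppb, Osmr (-1.27 ± 0.25, FDR = 0.00675) and Hrh1 (-1.84 ± 0.30, FDR = 0.00248) were called lower beside Sst in the libraries labelled Cre-. Il31ra, the interleukin-31 receptor of the same neurons, gave -0.06 ± 0.41, and Htr1f, a serotonin receptor, was higher (3.17 ± 0.42, FDR = 0.000661). Of 4 itch genes tested with the label Cre+, 0 were called, and DESeq2 called Il31ra higher. Between the pull-downs, Osmr (1.58 ± 0.35, FDR = 0.0785) and Il31ra (2.21 ± 0.55, FDR = 0.099) were called higher in the libraries labelled Cre+, and both lost the call with library size and upper-quartile scaling.

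Genes of the injury response, among which Gal, Npy, Vip and Adcyap1 are counted, were for the most part not called. Of 8 tested, 1 was called lower in each genotype: Sprr1a in the libraries labelled Cre+ (-1.43 ± 0.36, FDR = 0.0709) and Gap43 in those labelled Cre- (-1.75 ± 0.19, FDR = 0.000256). Library size scaling called 3 lower with the label Cre+ (Atf3, Sprr1a and Gadd45a). The medians were -0.56 and -0.04. The transcription factors Atf3 (-0.91 and -0.21) and Jun (0.47 and 0.93) missed the call in both with TMM, as did Sema6a (0.89 and 0.13) and Sox11 (0.36 and -0.72). Between the pull-downs, Gadd45a was called lower with the label Cre+ (-1.12 ± 0.27, FDR = 0.0941).

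Markers of other cells moved with some of these results. Glial genes (10 markers, all listed in the Cre- table and 6 in the Cre+ table, Fabp7 at 0 in a pull-down and Kcnj10 in an input labelled Cre-) summed to 2765 to 4275 CPM in the inputs labelled Cre- and to 1258 to 1665 in the pull-downs, and Pmp22 (-1.71), Apoe (-1.58) and Fabp7 (-3.09) were called lower there. Pmp22 made up most of these sums (2389 to 3831 in the inputs and 704 to 1154 in the pull-downs). S100b went the other way, with 368, 287 and 301 in the inputs and 445, 530 and 569 in the pull-downs (0.69 ± 0.16, FDR = 0.0143, under the 2-fold limit), and its enrichment differed between the genotypes (-1.64 ± 0.35, FDR = 0.0382). The sum with the label Cre+ was 2411 to 3701 in the inputs and 1639 to 2265 in the pull-downs, with 0 of 6 called (Pmp22 and S100b were lower with library size scaling and S100b with upper-quartile scaling). Pan-neuronal genes (8 of 8 listed, none at 0) summed to 9795 to 11826 in the inputs labelled Cre- and 18819 to 19502 in the pull-downs, with Snap25 called higher (1.17, not with library size scaling). Snap25 made up most of these sums (6214 to 8355 in the inputs and 15063 to 16273 in the pull-downs), and the median log2 fold change of the list was 0.00, with Rbfox3 at -0.76 (FDR = 0.00583). In the libraries labelled Cre+ the pan-neuronal genes summed to 8775 to 13890 and 5901 to 7157, with Uchl1 (-1.85), Stmn2 (-1.21) and Tubb3 (-1.19) called lower. Fibroblast markers (5 and 4 listed) summed to 75.5 to 94.3 in the inputs and 25.0 to 86.1 in the pull-downs labelled Cre-, with Col1a1 called lower (-1.34), and to 61.4 to 95.3 and 66.8 to 76.4 in those labelled Cre+, with none called. Macrophage markers (4 of 5 listed) summed to 42.9 to 123 and 40.4 to 70.5 in the libraries labelled Cre-, where Itgam was called higher (1.28), and endothelial markers (3 of 4 listed) to 58.3 to 87.7 and 15.2 to 112 with none called. With the label Cre+, endothelial markers summed to 46.1 to 82.2 in the inputs and 96.5 to 381 in the pull-downs, every pull-down above every input, with a median log2 fold change of 1.38, none called with edgeR and Cdh5 called higher with DESeq2. Macrophage markers (2 of 5 listed) summed there to 25.8 to 68.1 and 4.85 to 112 with none called. Of 4 sympathetic markers, Th was listed (-0.11 and -1.39, not called), a neuron type that also makes Npy and Gal. The part of these cells in the members' values was not tested.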

How the data were processed

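RNA was sequenced from 12 libraries of cultured DRG neurons, grouped by the genotype and RNA fraction in the labels. The authors aligned 50-base paired reads to mm10 with STAR and deposited, for each genotype, whole-number counts per gene made with HTSeq on refFlat, not normalized, and the mean FPKM over its libraries, also computed by the authors. The submitters' processing notes name CASAVA 1.8.2 and edgeR. The tables also hold the authors' fold changes, p-values and FDR, and 18 columns per sample of their normalized counts and ratios. None of these were used. Rn45s, the precursor of ribosomal RNA, held 2.80% to 8.53% of the counts of a library. The names of the Cre+ pull-down columns match the titles of the Cre- pull-downs apart from punctuation, and they were assigned, as a group, to the samples whose labels name that table. Their numbers only tell libraries apart.

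Counts were scaled by TMM and tested by quasi-likelihood (glmQLFTest after glmQLFit, edgeR 4.0.16, R 4.3.3) on genes with a mean FPKM above 1, with Benjamini-Hochberg adjustment over all genes tested (8947 for Cre+, 11526 for Cre- and 8830 in both), with a call where FDR was below 0.1 and the change at least 2-fold. Levels are TMM-scaled counts per 1000000 (CPM) within a genotype. The SE is the size of the log2 fold change divided by the square root of F. Every member was named, and of each list the called genes and the most abundant. The members and lists were chosen with earlier results of these data known. A marker of the peptidergic nociceptor list is not reported here and was left out of that list. Alternatives were DESeq2 1.42.0, other scalings, filters and fits, and each library left out. Same-numbered inputs of both genotypes deviated together (r of 0.276, 0.192 and 0.198), so a replicate block was added there, after seeing the data. Scripts were tested on simulated data. Total counts of 8886308 to 18633365 set the precision, and limits from counts cover counting error only. Lengths came from GENCODE M21, upstream sequence from RefSeq, and figures from matplotlib 3.10.9.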

Additional observations from a re-analysis of the deposited data

Results flagged for a closer look

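The pull-down enrichment of Adcyap1 differed between the genotypes by the test of the difference itself (log2 difference of -1.94, labelled Cre+ minus labelled Cre-, FDR = 0.067 with edgeR's quasi-likelihood test). All 3 pull-downs labelled Cre+ were below all 3 inputs, and the mean of the pull-downs labelled Cre- was above that of their inputs. The call was lost without any of 6 of the 12 libraries. The neuronal genes Snap25 (-1.75), Uchl1 (-1.95) and Stmn2 (-1.26) and the proprioceptor genes Spp1 (-3.59) and Etv1 (-2.40) were called in the same direction, and their part in the result was not tested. No outlier test was run on groups of 3.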

How the results depend on the processing

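Of 412 member values under an alternative, 359 kept their direction and their side of the threshold, 22 lost the call, 14 gained it and 17 changed sign. Calca, Calcb, Gal and Sst in the libraries labelled Cre- kept the call under every alternative run. Members called lower with the label Cre+ numbered 2, but 4 with DESeq2, upper-quartile scaling, the exact test and all 12 libraries in one fit, 5 with library size scaling, and 0 to 4 with a library left out. The 1 member called higher with the label Cre- (Adcyap1) became 0 with library size scaling and with all 12 libraries in one fit, and 0 to 1 with a library left out. The 1 member called lower in the difference of the enrichments, and the 1 between the pull-downs, became 0 to 1 with a library left out, and 0 to 1 were then called higher between the pull-downs. Over all genes, the 463 higher and 223 lower with the label Cre+ were 1103 and 568 with DESeq2, 794 and 485 with the exact test, 1248 and 939 in the fit of all 12 libraries, 195 and 715 with library size scaling, and 0 when any 1 Cre+ input was left out. Those with the label Cre- (698 and 684) were 265 and 173 in the fit of all 12 libraries, which tested the 8830 genes that passed in both tables and not 11526. DESeq2 called 615 and 420 for the difference (233 and 190) and 759 and 434 between the pull-downs (146 and 134). The cause was not tested. Changes of sign had FDRs of 0.573 or more. They were seen with library size scaling for Tac1 (-0.20) and Nts (-0.0053) in the difference and for Tac1 between the pull-downs (-0.018), with upper-quartile scaling for Tac1 in the difference (-0.12), and with the replicate block for Adcyap1 between the inputs (0.0053). With a library left out, they were seen for Npy with the label Cre- (-1.23 to 1.59), Tac1 (-0.16 to 0.39) and Nts (-0.10 to 0.86) in the difference, Tac1 between the pull-downs (-0.0044 to 0.58), and Tac1 (-0.073 to 0.34) and Adcyap1 (-0.24 to 0.33) between the inputs. Robust dispersions and the block between inputs were chosen after seeing the data. Same-numbered Cre- pull-downs and inputs did not all deviate together (r of 0.0674, 0.0284 and 0.124), and the replicate block there gave -2.62 for Calca, changed no member's call and called 689 genes higher and 757 lower. No block was fitted with the label Cre+, whose pull-down columns could not be tied to numbered samples. Depth limits Npy most (0 to 27 counts), then Sst (8 to 142).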
